A study of Homo sapiens with 4 samples.

Results

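Translation initiation and elongation factors are the proteins that bring a ribosome to an mRNA, set it at the start codon and move it along the coding sequence. They were followed in human fibroblasts with an induced RAS oncogene, in which the FOXF1 gene or an enhancer that acts on it was cut. The genes were chosen by symbol, as those that begin with EIF1 to EIF6 or with EEF and a digit, without the EIF2AK kinases and without symbols that end in P or in P and a number. Of 71 rows with such symbols, 4 were EIF2AK kinases and 13 fell under the P ending, among them 9 EEF1A1 pseudogenes. The ending also removed EIF4EBP1 and EIF4EBP2, which are not pseudogenes but code for 4E-binding proteins, and they are described with the regulators below. This left 54 of the 12033 genes in the table, 53 of them protein-coding. The remaining row is the long non-coding RNA EIF3J-AS1 (EIF3J-DT in GENCODE v44). It codes for no factor but is counted with the factors below unless left out by name or number.

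BJ-indRAS G12V cells are hTERT-immortalized BJ foreskin fibroblasts that carry a RAS oncogene switched on by 4-hydroxytamoxifen (4-OHT), which drives them into oncogene-induced senescence. All 4 conditions had been given 4-OHT for 14 days and a CRISPR vector, and each was represented by 1 RNA library. The guides sgRNA-AP1-69 and sgRNA-AP1-71 both cut the AP-1 binding site of the enhancer Enh AP1-OIS1, sgRNA-FOXF1 cuts FOXF1 itself, and the control guide sgRNA-NT has no target. Values are RPKM, reads per kilobase of gene scaled to the reads of the library, which the authors quantile-normalized across the libraries and raised to a floor of 1. There is no untreated or proliferating library among the 4, so nothing here bears on the effect of RAS. With 1 library per guide no value has a replicate error, and the depth of the libraries is unknown.

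Initiation begins when eIF2 carries the initiator tRNA to the small ribosomal subunit, helped by eIF1, eIF1A, eIF3 and eIF5, while eIF4F (the cap-binding eIF4E, the scaffold eIF4G and the helicase eIF4A) recruits the mRNA. eIF2B reloads eIF2 with GTP, and eIF5B joins the large subunit. In elongation eEF1A delivers aminoacyl-tRNA, the eEF1B complex recharges eEF1A with GTP, and eEF2 moves the ribosome by a codon. Many mRNAs of this machinery, like those of ribosomal proteins, begin with a C followed by pyrimidines, the 5′ terminal oligopyrimidine (TOP) element through which mTOR signalling and LARP1 control their translation and stability.

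The starts of 44 of the factors were found in RefSeq promoters of the build GRCh38.p14, and 12 of them (27.3%) had a start that reads C followed by 4 bases that are each C or T on the transcribed strand, against 1404 of 27305 genes in the table (5.14%) counted in the same way, 1429 of its 35116 promoters (4.07%) and 46 of 63 cytosolic ribosomal proteins found there. The other strand was not searched, and 9 factors have several listed starts, of which any could match. The letters describe these annotated starts only and were not tied to the start used in these cells. The stretches below run from 10 bases before the start to 20 bases from it, and the unbroken run of pyrimidines from the start is in capitals. EEF1A1, EEF2 and EEF1B2 are shown as the most abundant elongation factors, EIF3M and EIF2D as factors that were higher with guides than with sgRNA-NT, EIF2S3 and EIF4A2 as factors that were lower, and EIF4G3 as a factor without such a start at either listed position.
EEF1A1, chr6:73521013-73521042, minus strand: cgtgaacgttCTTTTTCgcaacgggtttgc
EEF2, chr19:3985444-3985473, minus strand: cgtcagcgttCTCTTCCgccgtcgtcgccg
EEF1B2, chr2:206159885-206159914, plus strand: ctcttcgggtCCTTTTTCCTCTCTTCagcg
EIF3M, chr11:32583821-32583850, plus strand: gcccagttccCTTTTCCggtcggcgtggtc
EIF2D, chr1:206612446-206612475, minus strand: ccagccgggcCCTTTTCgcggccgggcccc
EIF2S3, chrX:24054946-24054975, plus strand: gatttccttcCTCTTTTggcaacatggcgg
EIF4A2, chr3:186783567-186783596, plus strand: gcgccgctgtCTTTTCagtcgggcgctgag
EIF4G3, chr1:21176878-21176907, minus strand: ttttccgagcagccgtcctgccggactgct
The other factors with such a start were EIF2A, EIF3D, EIF3F, EIF3K and EIF4B.

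The labels and the cell type were checked first. FOXF1 stood at 11.1 RPKM in the library of sgRNA-AP1-69, at 7.8 RPKM in that of sgRNA-AP1-71 and at 25 RPKM in that of sgRNA-FOXF1, against 29.6 RPKM with sgRNA-NT. A cut in the coding sequence need not lower the mRNA, so the value for sgRNA-FOXF1 does not check that label. All 8 fibroblast markers on the list were above the floor, with summed levels of 5220.1 (sgRNA-AP1-69), 5390.2 (sgRNA-AP1-71) and 5154.7 (sgRNA-FOXF1) RPKM, against 3701.5 RPKM with sgRNA-NT. These sums rest mostly on VIM and S100A4, and the median log2 ratio of the 8 was -0.08 (sgRNA-AP1-69), -0.04 (sgRNA-AP1-71) and 0.23 (sgRNA-FOXF1). FN1, COL1A1 and COL1A2 were over 1.5-fold lower with both enhancer guides. The 12 markers of other cell types were not analysed here. HRAS, a RAS gene, was at 446.4 (sgRNA-AP1-69), 427.4 (sgRNA-AP1-71) and 707.6 (sgRNA-FOXF1) RPKM, against 829.4 RPKM with sgRNA-NT. Of 13 mRNAs made in mitochondria, 8 (sgRNA-AP1-69), 10 (sgRNA-AP1-71) and 7 (sgRNA-FOXF1) were at least 1.5-fold lower and none was 1.5-fold higher, with median log2 ratios to sgRNA-NT of -1.02 (sgRNA-AP1-69), -1.54 (sgRNA-AP1-71) and -0.77 (sgRNA-FOXF1). What part HRAS, the fibroblast genes and these mRNAs have in the results below was not tested. In bulk samples fewer cells of a type and less RNA per cell cannot be told apart.

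By level per length, EEF1A1 was the first of the 54 factors in each library, at 2382.4 (sgRNA-AP1-69), 4212.3 (sgRNA-AP1-71) and 1775.3 (sgRNA-FOXF1) RPKM, against 1326.5 RPKM with sgRNA-NT. EEF2, the translocase, followed at 519.0 (sgRNA-AP1-69), 488.1 (sgRNA-AP1-71) and 519.0 (sgRNA-FOXF1) RPKM, against 488.1 RPKM with sgRNA-NT. The mean of EEF1A1 over the libraries was 2424 RPKM and that of EEF2 was 504 RPKM, and their ranges did not overlap. Behind them stood EIF5A, which carries hypusine and relieves stalled ribosomes, at 344.7 (sgRNA-AP1-69), 346.6 (sgRNA-AP1-71) and 383.3 (sgRNA-FOXF1) RPKM, against 315.9 RPKM with sgRNA-NT. EEF1B2, an exchange subunit of eEF1B, came next at 352.3 (sgRNA-AP1-69), 379.8 (sgRNA-AP1-71) and 309.2 (sgRNA-FOXF1) RPKM, against 278.5 RPKM with sgRNA-NT. These neighbours in the order overlap in their ranges. EIF3I, EIF4H, EIF1 and EIF3D were the remaining ones of the 8 factors that averaged 100 RPKM or more. The cap-binding protein EIF4E was among the lowest of the factors compared, at 2.7 (sgRNA-AP1-69), 2.8 (sgRNA-AP1-71) and 3.1 (sgRNA-FOXF1) RPKM, against 2.5 RPKM with sgRNA-NT.

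**Figure D1:**
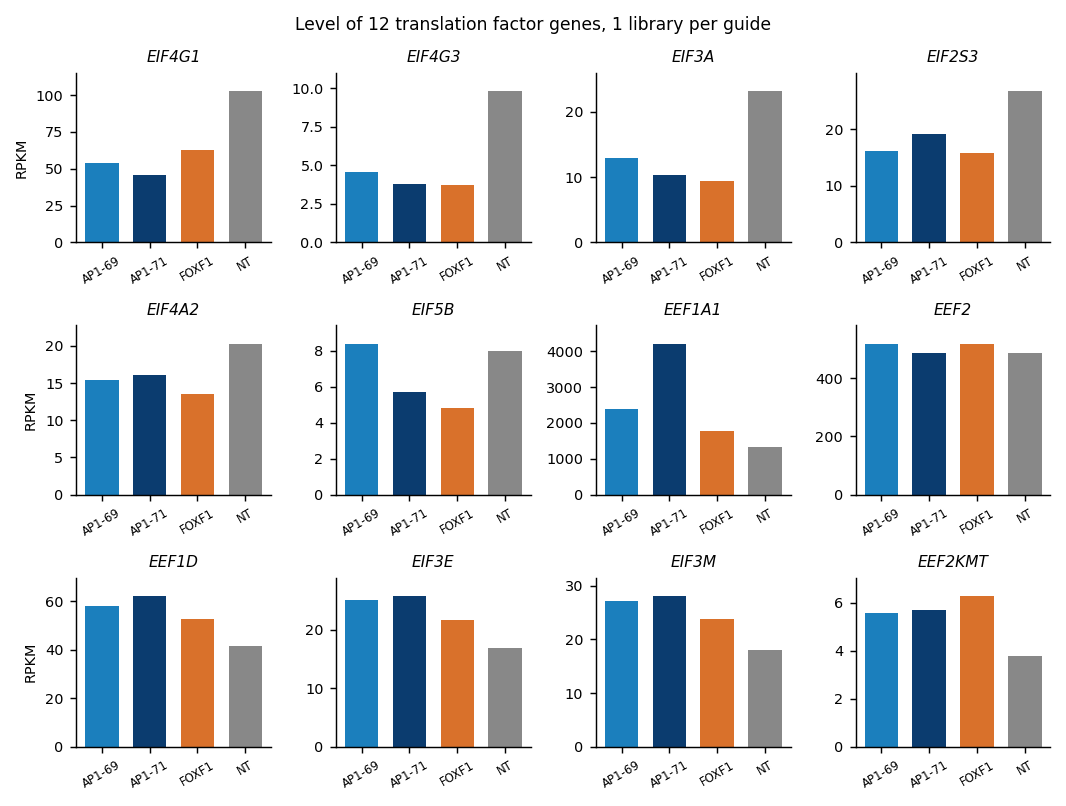
RPKM of 12 translation factors in the 4 libraries (1 bar per library, vertical axis in RPKM from 0 in each panel). EEF1A1 is highest with sgRNA-AP1-71 (4212.3 RPKM), and EIF4G1, EIF4G3 and EIF3A are lower in the 3 targeted libraries than with sgRNA-NT.

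For the comparison with sgRNA-NT, only genes whose mean over the libraries was 2 RPKM or more were used, which kept 49 of the 54 factors and 7596 genes in all. EEF1A2, EIF3C, EIF4A1, EIF5A2 and EIF5AL1 fell below this mean. The median log2 ratio of the 49 factors was 0.13 (sgRNA-AP1-69), 0.13 (sgRNA-AP1-71) and 0.07 (sgRNA-FOXF1), beside 0.07, 0.08 and 0.05 over all genes compared. With transcript length removed the sgRNA-FOXF1 median was -0.09. As a group the factors therefore lay close to the centre of the transcriptome. The cytosolic ribosomal proteins, of which 78 of 79 were compared, had medians of 0.49 (sgRNA-AP1-69), 0.55 (sgRNA-AP1-71) and 0.25 (sgRNA-FOXF1).

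At least 1.5-fold differences were few and did not exceed the share seen over all genes by much in any library. With sgRNA-AP1-69, 2 factors were higher and 4 lower than with sgRNA-NT, while 8.18% of all genes were higher and 9.93% lower. With sgRNA-AP1-71, 7 were higher and 3 lower, against 14.0% and 14.7% of all genes. With sgRNA-FOXF1, 1 was higher and 6 lower, against 11.6% and 13.2% of all genes. The 7 of 49 with sgRNA-AP1-71 come to 14.3%, and the other shares of factors were below those of all genes. The 3 comparisons share the single sgRNA-NT library, so a deviation of that library enters each of them.

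**Figure D2:**
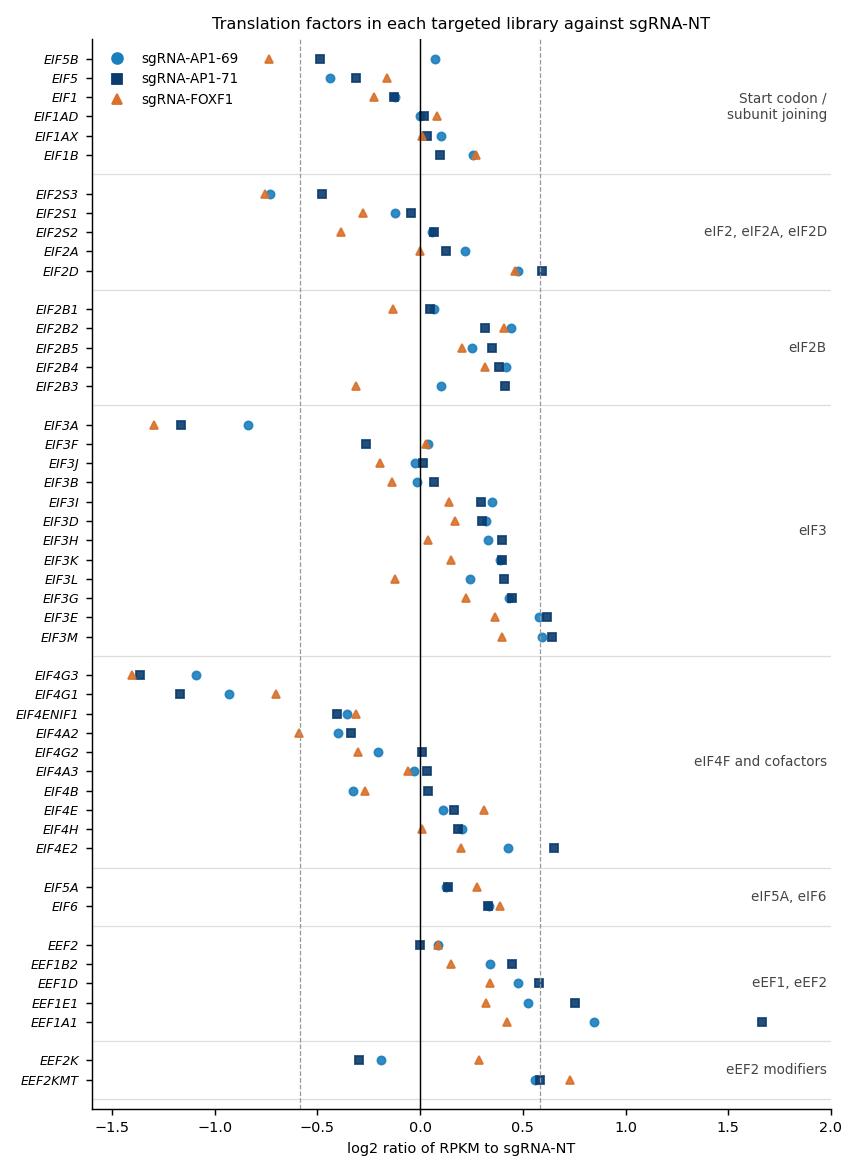
Log2 ratio of RPKM to sgRNA-NT (horizontal axis) for 47 translation factors, grouped by role, with 1 point for each targeted library and lines at 0 and at a 1.5-fold difference. EIF4G1, EIF4G3 and EIF3A lie past the 1.5-fold line on the lower side with all 3 guides, and EEF1A1 lies farthest on the higher side, with sgRNA-AP1-71.

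Of the scaffolds of eIF4F, EIF4G1 and EIF4G3 had ratios well below 0 with each guide. EIF4G1 (ENSG00000114867, chr3:184032283-184053146 on the plus strand of hg19), which holds the cap-binding protein, the helicase and eIF3 together, was at 53.8 (sgRNA-AP1-69), 45.5 (sgRNA-AP1-71) and 62.9 (sgRNA-FOXF1) RPKM, against 102.5 RPKM with sgRNA-NT. These are levels 1.91-fold (sgRNA-AP1-69), 2.25-fold (sgRNA-AP1-71) and 1.63-fold (sgRNA-FOXF1) lower. EIF4G3 (ENSG00000075151, chr1:21132785-21503778 on the minus strand of hg19), its paralog, was at 4.6 (sgRNA-AP1-69), 3.8 (sgRNA-AP1-71) and 3.7 (sgRNA-FOXF1) RPKM, against 9.8 RPKM with sgRNA-NT, or 2.13-fold (sgRNA-AP1-69), 2.58-fold (sgRNA-AP1-71) and 2.65-fold (sgRNA-FOXF1) lower. In both genes each targeted library was below sgRNA-NT, and the guides lay closer to each other than to the control. EIF4G2 (DAP5), which lacks the site that binds eIF4E, was at 74.7 (sgRNA-AP1-69), 86.6 (sgRNA-AP1-71) and 69.7 (sgRNA-FOXF1) RPKM, against 86.1 RPKM with sgRNA-NT, so sgRNA-AP1-71 was level with sgRNA-NT. Summed over the 3 scaffolds, the levels were 133.1 (sgRNA-AP1-69), 135.9 (sgRNA-AP1-71) and 136.3 (sgRNA-FOXF1) RPKM, against 198.4 RPKM with sgRNA-NT.

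The eIF4A helicases unwind the 5′ leader of the mRNA. EIF4A2 was at 15.4 (sgRNA-AP1-69), 16.1 (sgRNA-AP1-71) and 13.5 (sgRNA-FOXF1) RPKM, against 20.3 RPKM with sgRNA-NT, and only the sgRNA-FOXF1 level was 1.5-fold lower. EIF4A3, the helicase of the exon junction complex, was at 20 (sgRNA-AP1-69), 20.9 (sgRNA-AP1-71) and 19.6 (sgRNA-FOXF1) RPKM, against 20.4 RPKM with sgRNA-NT, so that sgRNA-NT lay between the enhancer guides. EIF4A1, the main helicase of eIF4F in most cells, was listed at the floor of 1.0 RPKM in all 4 libraries. In the annotation of the same coordinates (GENCODE v44 on GRCh37), 100% of its exonic bases are also exonic in another gene on the same strand, so this entry gives no level for EIF4A1. How the counting treated reads shared by genes is not given in the sources used here.

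Of the cap-binding proteins, EIF4E2 (4EHP), which binds caps without eIF4G and represses translation, was at 12.8 (sgRNA-AP1-69), 14.9 (sgRNA-AP1-71) and 10.9 (sgRNA-FOXF1) RPKM, against 9.5 RPKM with sgRNA-NT. The level with sgRNA-AP1-71 was 1.57-fold higher, that with sgRNA-AP1-69 1.35-fold and that with sgRNA-FOXF1 1.15-fold higher. With length removed, its log2 ratio with sgRNA-FOXF1 was -0.15 instead of 0.20. EIF4H, a cofactor of the eIF4A helicase and the most abundant factor of this role, was at 234.4 (sgRNA-AP1-69), 231.1 (sgRNA-AP1-71) and 204.5 (sgRNA-FOXF1) RPKM, against 203.5 RPKM with sgRNA-NT. Its sgRNA-FOXF1 level therefore sat at that of the control. Over the 10 factors of this role that were compared, median log2 ratios were -0.27 (sgRNA-AP1-69), 0.02 (sgRNA-AP1-71) and -0.29 (sgRNA-FOXF1).

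A large complex, eIF3, bridges the small ribosomal subunit and eIF4G, and its subunits did not all lie on the same side of sgRNA-NT. EIF3A (ENSG00000107581, chr10:120793182-120840329 on the minus strand of hg19), the largest subunit and its scaffold, was at 12.9 (sgRNA-AP1-69), 10.3 (sgRNA-AP1-71) and 9.4 (sgRNA-FOXF1) RPKM, against 23.1 RPKM with sgRNA-NT, which is 1.79-fold (sgRNA-AP1-69), 2.24-fold (sgRNA-AP1-71) and 2.46-fold (sgRNA-FOXF1) lower. The other 12 subunit rows summed to 709.3 (sgRNA-AP1-69), 708.1 (sgRNA-AP1-71) and 615.3 (sgRNA-FOXF1) RPKM, against 565 RPKM with sgRNA-NT. Before any correction for length, EIF3A was thus lower in libraries where its partners together were higher. With length removed, EIF3D, EIF3G, EIF3I and EIF3K had log2 ratios of -0.04, -0.11, -0.14 and -0.22 with sgRNA-FOXF1. With the enhancer guides the same genes lay between -0.03 and 0.14. With sgRNA-FOXF1, EIF3E, EIF3F, EIF3H and EIF3M stayed above 0, and EIF3B, EIF3J and EIF3L were below 0 with or without the correction. EIF3M was at 27.2 (sgRNA-AP1-69), 28.1 (sgRNA-AP1-71) and 23.7 (sgRNA-FOXF1) RPKM, against 18.0 RPKM with sgRNA-NT, with log2 ratios of 0.60 (sgRNA-AP1-69), 0.64 (sgRNA-AP1-71) and 0.40 (sgRNA-FOXF1). EIF3E, first known as a site where mouse mammary tumour virus inserts, was at 25.1 (sgRNA-AP1-69), 25.8 (sgRNA-AP1-71) and 21.6 (sgRNA-FOXF1) RPKM, against 16.8 RPKM with sgRNA-NT, with log2 ratios of 0.58 (sgRNA-AP1-69), 0.62 (sgRNA-AP1-71) and 0.36 (sgRNA-FOXF1). In both, the enhancer guides were within 1 RPKM of each other and sgRNA-FOXF1 was between them and sgRNA-NT. EIF3I, the most abundant subunit, was at 262.1 (sgRNA-AP1-69), 252.7 (sgRNA-AP1-71) and 226.8 (sgRNA-FOXF1) RPKM, against 205.6 RPKM with sgRNA-NT. The role medians were 0.33 (sgRNA-AP1-69), 0.35 (sgRNA-AP1-71) and 0.09 (sgRNA-FOXF1) over 12 compared subunits. EIF3C, a core subunit, was listed at 1.5 (sgRNA-AP1-69), 1.9 (sgRNA-AP1-71) and 1.7 (sgRNA-FOXF1) RPKM, against 1.3 RPKM with sgRNA-NT, near the floor, and its near-identical copy EIF3CL was not analysed here.

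The start-codon factors had median log2 ratios near 0, namely 0.07 (sgRNA-AP1-69), 0.02 (sgRNA-AP1-71) and 0.01 (sgRNA-FOXF1) over 7 compared genes. EIF1, which keeps the scanning ribosome from starting at the wrong codon, was at 153.5 (sgRNA-AP1-69), 153.0 (sgRNA-AP1-71) and 142.8 (sgRNA-FOXF1) RPKM, against 167.1 RPKM with sgRNA-NT. EIF5B, the GTPase that joins the large subunit, was at 8.4 (sgRNA-AP1-69), 5.7 (sgRNA-AP1-71) and 4.8 (sgRNA-FOXF1) RPKM, against 8.0 RPKM with sgRNA-NT. The enhancer guides fell on opposite sides of the control for EIF5B, and only the sgRNA-FOXF1 level was over 1.5-fold lower, at 1.67-fold. The factor EIF1AY is counted in this role, and its level is not given.

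eIF2 delivers the initiator tRNA as a trimer, and its 3 subunits differed. EIF2S3, the gamma subunit that binds GTP and the tRNA, was at 16.1 (sgRNA-AP1-69), 19.2 (sgRNA-AP1-71) and 15.8 (sgRNA-FOXF1) RPKM, against 26.7 RPKM with sgRNA-NT, which is 1.66-fold (sgRNA-AP1-69), 1.39-fold (sgRNA-AP1-71) and 1.69-fold (sgRNA-FOXF1) lower. EIF2S1, the alpha subunit whose phosphorylation marks the integrated stress response, was at 8.9 (sgRNA-AP1-69), 9.4 (sgRNA-AP1-71) and 8.0 (sgRNA-FOXF1) RPKM, against 9.7 RPKM with sgRNA-NT. EIF2S2, the beta subunit, was at 36.4 (sgRNA-AP1-69), 36.7 (sgRNA-AP1-71) and 26.8 (sgRNA-FOXF1) RPKM, against 35.0 RPKM with sgRNA-NT. All 3 subunits were lowest with sgRNA-FOXF1, and EIF2S3 alone was over 1.5-fold lower, under the guides sgRNA-AP1-69 and sgRNA-FOXF1. EIF2D, which brings tRNA to the ribosome without GTP, was higher than the control with each guide, at 9.6 (sgRNA-AP1-69), 10.4 (sgRNA-AP1-71) and 9.5 (sgRNA-FOXF1) RPKM, against 6.9 RPKM with sgRNA-NT, and the sgRNA-AP1-71 level passed 1.5-fold at 1.51-fold.

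eIF2B is the exchange factor that the stress response blocks. EIF2B4 was at 13.1 (sgRNA-AP1-69), 12.8 (sgRNA-AP1-71) and 12.2 (sgRNA-FOXF1) RPKM, against 9.8 RPKM with sgRNA-NT, and EIF2B2 at 13.3 (sgRNA-AP1-69), 12.2 (sgRNA-AP1-71) and 13.0 (sgRNA-FOXF1) RPKM, against 9.8 RPKM with sgRNA-NT. EIF2B5, the catalytic subunit, was at 11.8 (sgRNA-AP1-69), 12.6 (sgRNA-AP1-71) and 11.4 (sgRNA-FOXF1) RPKM, against 9.9 RPKM with sgRNA-NT. EIF2B1 was at 15.3 (sgRNA-AP1-69), 15.1 (sgRNA-AP1-71) and 13.3 (sgRNA-FOXF1) RPKM, against 14.6 RPKM with sgRNA-NT. EIF2B3 was at 13.2 (sgRNA-AP1-69), 16.4 (sgRNA-AP1-71) and 9.9 (sgRNA-FOXF1) RPKM, against 12.3 RPKM with sgRNA-NT, so that the libraries of the guides lay on both sides of the control for these last subunits. None of the 5 reached a 1.5-fold difference from sgRNA-NT, and their medians were 0.25 (sgRNA-AP1-69), 0.35 (sgRNA-AP1-71) and 0.20 (sgRNA-FOXF1).

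Among the elongation factors, EEF1A1 (ENSG00000156508, chr6:74199031-74235310 on the minus strand of hg19) had the highest log2 ratios of the factors with the enhancer guides, 0.84 with sgRNA-AP1-69 and 1.67 with sgRNA-AP1-71, beside 0.42 with sgRNA-FOXF1. The enhancer guides differed from each other by 0.82 on the log2 scale, about as much as sgRNA-AP1-69 differed from sgRNA-NT. EEF1A1 ranked 15 (sgRNA-AP1-69), 11 (sgRNA-AP1-71) and 19 (sgRNA-FOXF1) among all genes in the targeted libraries and 23 with sgRNA-NT. Quantile normalization gives each rank a set value, and the genes next to EEF1A1 in the sgRNA-AP1-71 library stood at 5249.2 and 3237.6 RPKM. The mitochondrial mRNAs MT-ND4, MT-ND4L and MT-ND5 ranked above EEF1A1 with sgRNA-NT (11475.6, 5249.2 and 2382.4 RPKM). So did MT-ATP6 (14464.8 RPKM), MT-ATP8, MT-CYB, MT-ND1, MT-ND2 and MT-ND3. With sgRNA-AP1-71 all of these ranked below it (MT-ND4 1623.7, MT-ND4L 577.6, MT-ND5 287 and MT-ATP6 3237.6 RPKM). MT-CO1, MT-CO2 and MT-CO3 stayed above it, and MT-ND6 was below it in both libraries. MT-ND3 was itself higher with sgRNA-AP1-71 (2382.4 RPKM) than with sgRNA-NT (1965.9 RPKM). What part such moves have in its level was not tested. The 9 EEF1A1 pseudogene rows summed to 25.4 (sgRNA-AP1-69), 32.3 (sgRNA-AP1-71) and 23.4 (sgRNA-FOXF1) RPKM, against 15 RPKM with sgRNA-NT, and reads that fit both could not be told apart. EEF1A2, the form of muscle and neurons, was listed at 1.0 (sgRNA-AP1-69), 1.0 (sgRNA-AP1-71) and 1.1 (sgRNA-FOXF1) RPKM, against 1.0 RPKM with sgRNA-NT.

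Before any correction for length, the other eEF1 genes compared also stood above sgRNA-NT with each guide. Once length was removed, EEF1E1 with sgRNA-FOXF1 had a log2 ratio of -0.02. EEF1B2 then had log2 ratios of -0.04 (sgRNA-AP1-69), 0.02 (sgRNA-AP1-71) and -0.21 (sgRNA-FOXF1). EEF1D, a further exchange subunit of eEF1B, was at 58.0 (sgRNA-AP1-69), 62.3 (sgRNA-AP1-71) and 52.7 (sgRNA-FOXF1) RPKM, against 41.7 RPKM with sgRNA-NT, with log2 ratios of 0.48 (sgRNA-AP1-69), 0.58 (sgRNA-AP1-71) and 0.34 (sgRNA-FOXF1). EEF1E1, a scaffold protein of the tRNA synthetase complex, was at 2.3 (sgRNA-AP1-69), 2.7 (sgRNA-AP1-71) and 2.0 (sgRNA-FOXF1) RPKM, against 1.6 RPKM with sgRNA-NT, and its sgRNA-AP1-71 level was 1.69-fold higher. It lies near the floor, where 0.1 RPKM is the smallest step the table shows, and 37.5% of its exonic bases belong also to another gene on the same strand. Of the 2 modifiers, EEF2KMT, which methylates eEF2, was at 5.6 (sgRNA-AP1-69), 5.7 (sgRNA-AP1-71) and 6.3 (sgRNA-FOXF1) RPKM, against 3.8 RPKM with sgRNA-NT. It was the factor that was 1.5-fold higher with sgRNA-FOXF1, at 1.66-fold, and it was also 1.5-fold higher, with no margin, with sgRNA-AP1-71. EEF2K, the kinase that inactivates eEF2, was at 2.8 (sgRNA-AP1-69), 2.6 (sgRNA-AP1-71) and 3.9 (sgRNA-FOXF1) RPKM, against 3.2 RPKM with sgRNA-NT.

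The paralogs of EIF5A were near the floor. EIF5A2 was listed at 1.3 (sgRNA-AP1-69), 1.3 (sgRNA-AP1-71) and 1.0 (sgRNA-FOXF1) RPKM, against 1.3 RPKM with sgRNA-NT, and EIF5AL1 at 1.4 (sgRNA-AP1-69), 1.3 (sgRNA-AP1-71) and 2.2 (sgRNA-FOXF1) RPKM, against 1.0 RPKM with sgRNA-NT. EIF6, which keeps the large subunit from joining too early, was at 95.9 (sgRNA-AP1-69), 95.8 (sgRNA-AP1-71) and 99.7 (sgRNA-FOXF1) RPKM, against 76.1 RPKM with sgRNA-NT. With length removed, EIF6 had log2 ratios of -0.0005 (sgRNA-AP1-69), -0.05 (sgRNA-AP1-71) and 0.05 (sgRNA-FOXF1). Those of EIF5A were then -0.17 (sgRNA-AP1-69), -0.21 (sgRNA-AP1-71) and -0.03 (sgRNA-FOXF1). No ratio was taken for the EIF5A paralogs, since they were not among the genes compared.

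The factors with a TOP-like start did not share 1 direction. Their median log2 ratios were 0.27 (sgRNA-AP1-69), 0.21 (sgRNA-AP1-71) and 0.12 (sgRNA-FOXF1), beside 0.09, 0.06 and 0.01 for the 28 compared factors with a listed start of another kind. Of the starts printed above, those of EEF1A1, EEF1B2, EIF3M and EIF2D belong to factors above sgRNA-NT with each guide. With length removed, EEF1B2 stayed above it only with sgRNA-AP1-71. The starts of EIF2S3 and EIF4A2 belong to factors below sgRNA-NT with each guide. EEF2 was level with sgRNA-NT under sgRNA-AP1-71 and slightly above it under the other guides. EIF4G1 and EIF4G3 have no such start at any listed position.

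Transcript length moved with the ratios. Over the 49 factors Spearman's rho between length of the canonical transcript and log2 ratio was -0.53 (sgRNA-AP1-69), -0.59 (sgRNA-AP1-71) and -0.42 (sgRNA-FOXF1), while over 7566 compared genes with a length it was -0.50 (sgRNA-AP1-69), -0.44 (sgRNA-AP1-71) and -0.45 (sgRNA-FOXF1). Genes are not independent replicates and the points share 1 control library, so these values are a description. The 17 shortest factors, up to 2022 nucleotides, had medians of 0.39 (sgRNA-AP1-69), 0.40 (sgRNA-AP1-71) and 0.22 (sgRNA-FOXF1), beside 0.30, 0.35 and 0.29 for all genes up to that length. The 17 longest had medians of -0.12 (sgRNA-AP1-69), -0.05 (sgRNA-AP1-71) and -0.16 (sgRNA-FOXF1), beside -0.18, -0.19 and -0.23 for all genes over 3512 nucleotides. The factors thus followed genes of like length. With length removed by a cubic spline, EIF4G3 had log2 ratios of -0.80 (sgRNA-AP1-69), -1.03 (sgRNA-AP1-71) and -1.06 (sgRNA-FOXF1). Those of EIF4G1 were then -0.72 (sgRNA-AP1-69), -0.93 (sgRNA-AP1-71) and -0.45 (sgRNA-FOXF1). EIF3A, the eIF3 scaffold, came to -0.53 (sgRNA-AP1-69), -0.81 (sgRNA-AP1-71) and -0.93 (sgRNA-FOXF1). EEF1A1 was on the higher side, with corrected ratios of 0.89 (sgRNA-AP1-69), 1.72 (sgRNA-AP1-71) and 0.46 (sgRNA-FOXF1). For EIF3M they were 0.78 (sgRNA-AP1-69), 0.85 (sgRNA-AP1-71) and 0.62 (sgRNA-FOXF1). These 5 genes kept their direction, while EIF4G1 with sgRNA-FOXF1 and EIF3A with sgRNA-AP1-69 no longer reached 1.5-fold. What lies behind the relation to length was not tested.

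The guides were also set against each other, since that needs no sgRNA-NT library. Between the enhancer guides, which cut the same site, the log2 ratios of sgRNA-AP1-71 to sgRNA-AP1-69 had an SD of 0.20 over the factors and 0.29 over all genes compared. EEF1A1 was the only factor past 1.5-fold, higher with sgRNA-AP1-71 (2.41% of all genes were higher and 2.84% lower). Against the mean of the enhancer guides, sgRNA-FOXF1 had a median of -0.17 over the 49 factors and of -0.03 over all genes, with 36 factors below 0 and 13 above. EEF1A1 was past 1.5-fold, at -0.84 on the log2 scale, and no factor was past 1.5-fold on the higher side (5.86% of all genes were higher and 3.54% lower). With sgRNA-AP1-69 left out, so that sgRNA-FOXF1 was set against sgRNA-AP1-71 alone, 1 factor was higher and 2 were lower. With sgRNA-AP1-71 left out, EEF1A1 was at -0.42 and no longer past 1.5-fold, and the 1 lower factor was EIF5B, at -0.81. Of the eIF3 subunits compared, 11 of 12 were lower with sgRNA-FOXF1 than the mean of the enhancer guides, with a median of -0.22. The cytosolic ribosomal proteins had a median of -0.26. GC content moved with this comparison, with Spearman's rho of 0.60 over all genes and 0.24 over the factors, and its part was not tested.

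To estimate a spread, both enhancer guides were taken as a pair. limma with a mean-variance trend called 0 of 49 factors, and 0 of 7596 genes, against sgRNA-NT at an adjusted p under 0.05 (Benjamini-Hochberg over all genes), and the smallest adjusted p was 0.205. At an unadjusted p under 0.05 it marked 15 factors, 12 higher and 3 lower, beside 13.7% of all genes higher and 10.6% lower. EIF4G3 had an estimate of -1.23 (SE 0.185) and EIF4G1 of -1.05 (SE 0.162). A fit that left out 251 genes with equal values under both enhancer guides, added after the data were seen, called 8 factors, 4 higher (9.04% of all genes in that fit) and 4 lower (10.3%). The 1 residual degree of freedom comes from the pair of guides, and the lone sgRNA-NT library is assumed to vary as they do.

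**Figure D3:**
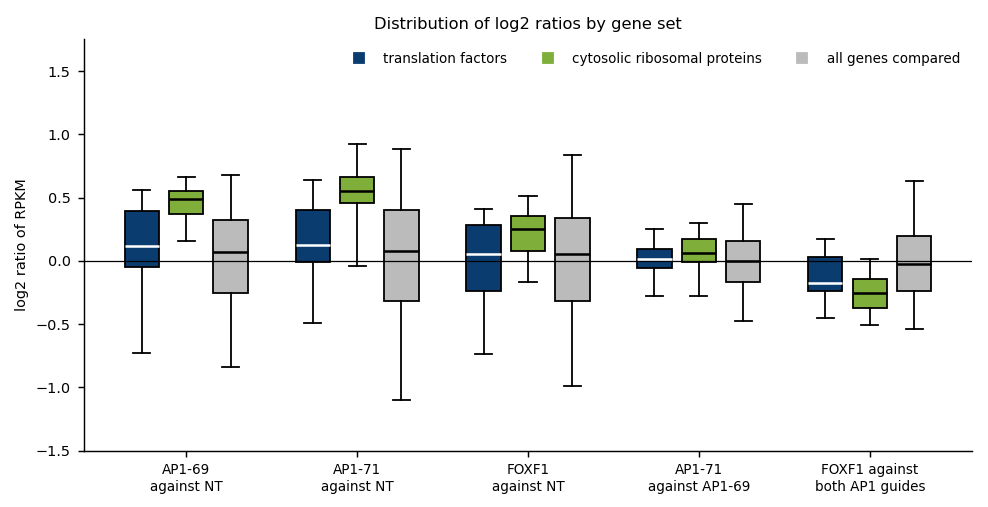
Log2 ratio of RPKM to sgRNA-NT (vertical axis) for 48 translation factors, 78 cytosolic ribosomal proteins and all 7596 genes compared, by guide. Boxes span the 25th to the 75th percentile with the median as a line and whiskers span the 5th to the 95th percentile. Against sgRNA-NT the ribosomal proteins lie above the translation factors with each guide. For sgRNA-FOXF1 against both enhancer guides they lie below the translation factors.

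Other genes of the pathway were taken from lists by function. The 4E-binding proteins hold eIF4E away from eIF4G. EIF4EBP1 was at 48.1 (sgRNA-AP1-69), 65.9 (sgRNA-AP1-71) and 65.6 (sgRNA-FOXF1) RPKM, against 41.5 RPKM with sgRNA-NT, and EIF4EBP2 at 9.7 (sgRNA-AP1-69), 8.8 (sgRNA-AP1-71) and 8.7 (sgRNA-FOXF1) RPKM, against 11.5 RPKM with sgRNA-NT. In the mTOR list 11 of 13 genes were compared, of which 2 (sgRNA-AP1-69), 6 (sgRNA-AP1-71) and 3 (sgRNA-FOXF1) were at least 1.5-fold lower and 1 was higher, with sgRNA-AP1-71. Over all genes the lower shares were 9.93% (sgRNA-AP1-69), 14.7% (sgRNA-AP1-71) and 13.2% (sgRNA-FOXF1). Of genes of 3512 nucleotides or longer, 18.8% (sgRNA-AP1-69), 25.9% (sgRNA-AP1-71) and 25.5% (sgRNA-FOXF1) were lower. The part of length in this and the other lists was not tested. LARP1, which binds TOP mRNAs, was at 26.5 (sgRNA-AP1-69), 20.2 (sgRNA-AP1-71) and 27.6 (sgRNA-FOXF1) RPKM, against 44.5 RPKM with sgRNA-NT. The poly(A)-binding protein PABPC1, which eIF4G binds to bring the mRNA ends together, was at 78.1 (sgRNA-AP1-69), 63.1 (sgRNA-AP1-71) and 80.1 (sgRNA-FOXF1) RPKM, against 127.3 RPKM with sgRNA-NT.

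Of the 5 poly(A)-binding genes compared, 1 (sgRNA-AP1-69), 2 (sgRNA-AP1-71) and 2 (sgRNA-FOXF1) were at least 1.5-fold lower and none was higher (9.93%, 14.7% and 13.2% of all genes were lower). The initiation helicase DDX3X was at 6.0 (sgRNA-AP1-69), 5.7 (sgRNA-AP1-71) and 5.7 (sgRNA-FOXF1) RPKM, against 11.3 RPKM with sgRNA-NT. The eIF2 kinase EIF2AK2 (PKR), which phosphorylates eIF2 alpha in response to double-stranded RNA, was at 2.0 (sgRNA-AP1-69), 2.0 (sgRNA-AP1-71) and 1.5 (sgRNA-FOXF1) RPKM, against 3.4 RPKM with sgRNA-NT. Both were below sgRNA-NT in each targeted library. In the other direction MCTS1, the partner of DENR in reinitiation, was at 20.5 (sgRNA-AP1-69), 25.8 (sgRNA-AP1-71) and 22.6 (sgRNA-FOXF1) RPKM, against 12.9 RPKM with sgRNA-NT, and DPH5, an enzyme of diphthamide synthesis on eEF2, was at 13.0 (sgRNA-AP1-69), 15.5 (sgRNA-AP1-71) and 12.2 (sgRNA-FOXF1) RPKM, against 8.5 RPKM with sgRNA-NT. DHPS, which starts hypusine synthesis on eIF5A, was at 14.9 (sgRNA-AP1-69), 17.4 (sgRNA-AP1-71) and 17.4 (sgRNA-FOXF1) RPKM, against 11.6 RPKM with sgRNA-NT. In the list of enzymes that modify the factors, 7 of 9 were compared, and of these 2 (sgRNA-AP1-69), 3 (sgRNA-AP1-71) and 1 (sgRNA-FOXF1) were at least 1.5-fold higher (8.18%, 14.0% and 11.6% of all genes). Of genes up to 2022 nucleotides, 16.6% (sgRNA-AP1-69), 26.1% (sgRNA-AP1-71) and 19.8% (sgRNA-FOXF1) were higher. Translation itself was not measured, so these values describe mRNA only.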

How the data were processed

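RNA from BJ-indRAS G12V fibroblasts was measured in 4 libraries, 1 for each guide, after 14 days of 4-OHT. Per the labels and the study's methods, TopHat2 placed the reads on hg19 and HTSeq counted them by gene. The authors turned these counts into RPKM (GENCODE v25) and quantile-normalized them, and the deposited RPKM table gives 12033 genes with a floor of 1 and 1 decimal. The versions of these tools, strand setting and counting mode were not given in the sources used here. Between them, labels and methods name different RNA kits. The deposited log2 ratios of the authors were not used. Depth is unknown, so counting precision cannot be given.

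Log2 ratios were taken without a pseudocount for genes averaging 2 RPKM or more, and 1.5-fold was the size rule. limma 3.58.1 in R 4.3.3 fitted log2 RPKM with groups by target, and was tested on simulated data. Gene positions and canonical transcript lengths came from GENCODE v44 on GRCh37 (hg19 coordinates), the lengths for 99.6% of genes compared. The named genes are FOXF1, the most abundant factor of each role, every factor past 1.5-fold in any targeted library, paralogs, the eIF2 and eIF2B subunits and up to 3 genes of each regulator list with the largest mean difference. EEF2, EEF1B2, EEF1D, EEF2K, EIF3D, EIF5 and EIF6 fall outside this rule and were named after their values were seen. The same holds for the mitochondrial mRNAs named with EEF1A1 other than MT-ND4, MT-ND4L and MT-ND5, and for the further eIF3 subunits named with length removed. The members and lists were chosen with earlier results of these data known. Python 3.11.15 (numpy 2.4.6, pandas 2.3.3, scipy 1.17.1, scikit-learn 1.9.0) and matplotlib 3.10.9 did the rest.

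Alternatives were a pseudocount of 1, no filter or a mean of at least 5 RPKM, median-centred ratios, length correction, a 2-fold rule, each enhancer guide left out, and limma with no trend or with all 3 targeted libraries in 1 group. A limma fit without the genes equal in both enhancer guides was added after the data were seen.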

Additional observations from a re-analysis of the deposited data

How the results depend on the processing

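Among 508 recomputed values no 1.5-fold call was reversed. The main limma fit held no call that could be reversed. With length removed, 3 of these values, each below 1.5-fold, changed sign with sgRNA-FOXF1, the median of the factors (-0.09), EIF4E2 (-0.15) and EEF1E1 (-0.02). Single factors were recomputed only if past 1.5-fold in a targeted library. Among the others, EEF1B2 (-0.21), EIF3K (-0.22), EIF3I (-0.14), EIF3G (-0.11), EIF4H (-0.09), EIF1B (-0.08), EIF3D (-0.04) and EIF5A (-0.03) also fell below 0 with sgRNA-FOXF1. EIF5 (0.12) rose above 0. Of the values for single factors, 371 kept their side of the threshold, 38 lost it and 2 gained it. Counts that moved by over 1.5 times were these. With a pseudocount of 1 RPKM, 1 factor was higher with sgRNA-AP1-69 and 4 with sgRNA-AP1-71. Without the filter on low values, 2 were higher with sgRNA-FOXF1 than with sgRNA-NT and 1 was higher than with the enhancer guides. With median-centred ratios, 1 was higher with sgRNA-AP1-69 and 2 with sgRNA-AP1-71. With length removed, 2 were higher with sgRNA-AP1-71 and 3 with sgRNA-FOXF1. Under a 2-fold rule, 0 were higher and 1 lower with sgRNA-AP1-69, 1 higher with sgRNA-AP1-71, 0 higher and 2 lower with sgRNA-FOXF1, 0 higher with sgRNA-AP1-71 than with sgRNA-AP1-69, and 0 lower with sgRNA-FOXF1 than with the enhancer guides. With each enhancer guide left out in turn, 0 to 1 factors were higher and 1 to 2 lower with sgRNA-FOXF1 than with the remaining guide, the larger counts being those without sgRNA-AP1-69. The cause of these moves was not tested.

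When 251 genes with equal values under both enhancer guides were left out, limma called 8 of 49 factors at an adjusted p under 0.05, 4 higher (EEF1D, EIF3E, EIF3M and EEF1A1) and 4 lower (EIF4G3, EIF4G1, EIF3A and EIF2S3), and 1423 of 7345 genes. That fit was chosen after the data were seen, and it gives every gene the same spread for its level. Every other limma setting called 0 factors. No paired analysis was possible because each guide has 1 library and the labels give no replicate numbers.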
